A study of Mus musculus with 1203 samples.

Results

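Tuft cells are rare chemosensory cells of the gut lining, and this account sets wild type colonic tuft cells with abundant Irf7 RNA against wild type tuft cells in which Irf7 was listed at 0. Irf7 encodes interferon regulatory factor 7, a transcription factor that interferon induces and that in turn drives type I interferon genes. The cells were those of genotype wt with at least 1000 genes above 0 TPM (a share of RNA corrected for transcript length and scaled to 1000000 per cell), Trpm5 of at least 50 TPM and Dclk1 of at least 100 TPM. Trpm5, the cation channel of taste-like signalling, and Dclk1, a kinase, are standard tuft markers. The groups were then chosen by the measured level of Irf7: 97 cells with 20 TPM or more are called Irf7-high (32.4% of the wild type cells that met the limits), and the cells with 0 TPM are called Irf7-negative (44.8%). Irf7-negative cells number 37, 32 and 65 in the 3 plate sets described next. The series has 1203 wells in all. The 68 cells between the Irf7 limits entered neither group.

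The study profiled single colonic cells of female mice aged 11 weeks by Smart-seq2, a plate method that copies polyadenylated RNA of 1 cell into full-length cDNA. Cells had been stained for EPCAM and SIGLEC-F, and a well was labelled tuft or epithelial. Wild type mice were studied beside VillinCre;IPMKf/f mice, in which Cre under the Villin promoter of the intestinal epithelium acts on floxed alleles of Ipmk, the gene for inositol polyphosphate multikinase. Both Irf7 groups described here are wt, untreated as far as the labels say. They lie on 8 plates of 3 plate sets, numbered 1, 3 and 6 in the well titles. Plate set 1 holds 12 Irf7-high and 37 Irf7-negative cells, plate set 3 holds 25 and 32, and plate set 6 holds 60 and 65. No label names an animal, so wild type is 1 sample, plate sets give the only spread, and that spread may be technical. No p-value was computed, since cells are not replicates and 3 plate sets could not give a sign-flip p below 0.25.

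Interferons act without infection as well as during it: low, constitutive signalling through the interferon receptors and transcription factors such as STAT2 and IRF9 keeps antiviral genes at a resting level, often called the tonic interferon state. Those factors bind a promoter element, the interferon-stimulated response element (ISRE). The products include sensors and effectors of viral RNA, such as the oligoadenylate synthetases, and the machinery that presents peptides on MHC class I molecules. Irf7 is one of these genes as well as a regulator of them.

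The promoters of the genes on which the comparison turns show how unevenly the element is found close to their starts. Sequences are from RefSeq (GRCm38.p6), 5′ to 3′ on the gene's strand, and end at or just before the annotated start. Capitals mark matches to a core of the ISRE, searched on both strands as GAAA, any 2 bases, then GAAA; overlapping matches run together. The windows are chr5:120907526-120907775 (minus strand) for Oas1a, chr5:120887614-120887863 (minus) for Oas1g, chr8:71537473-71537722 (minus) for Bst2, chr2:122147437-122147685 (plus) for B2m, and chr7:141266482-141266674 (minus) for Irf7.
Oas1a: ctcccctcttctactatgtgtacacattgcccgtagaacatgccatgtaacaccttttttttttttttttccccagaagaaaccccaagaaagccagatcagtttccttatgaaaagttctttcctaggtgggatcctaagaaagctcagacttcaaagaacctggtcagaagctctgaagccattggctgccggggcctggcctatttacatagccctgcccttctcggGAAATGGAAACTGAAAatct
Oas1g: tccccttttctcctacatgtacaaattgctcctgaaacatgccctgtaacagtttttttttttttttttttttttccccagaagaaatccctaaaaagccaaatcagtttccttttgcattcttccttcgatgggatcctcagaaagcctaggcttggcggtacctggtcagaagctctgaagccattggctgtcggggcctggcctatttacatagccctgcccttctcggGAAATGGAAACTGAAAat
Bst2: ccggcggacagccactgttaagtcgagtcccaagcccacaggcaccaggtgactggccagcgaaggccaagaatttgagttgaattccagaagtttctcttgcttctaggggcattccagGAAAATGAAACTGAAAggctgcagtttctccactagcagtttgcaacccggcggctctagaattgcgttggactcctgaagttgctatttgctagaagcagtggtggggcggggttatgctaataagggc
B2m: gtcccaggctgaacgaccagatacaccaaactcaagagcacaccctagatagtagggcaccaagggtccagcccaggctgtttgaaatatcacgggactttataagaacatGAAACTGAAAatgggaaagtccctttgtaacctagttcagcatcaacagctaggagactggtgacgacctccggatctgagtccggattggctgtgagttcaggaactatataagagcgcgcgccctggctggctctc
Irf7: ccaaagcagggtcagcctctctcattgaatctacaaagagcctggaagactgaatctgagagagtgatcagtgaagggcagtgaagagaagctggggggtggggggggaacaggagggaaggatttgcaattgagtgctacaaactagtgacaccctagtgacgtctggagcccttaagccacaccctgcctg

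Oas1a and Oas1g, neighbouring paralogs on chromosome 5, each carry 2 overlapping matches in the same surroundings, and Bst2 carries 2 as well. B2m carries 1. The Irf7 window holds no match, and neither does that of Oasl2, which says only that these letters are absent there. The 57 bases nearest the RefSeq start of Irf7 lie inside the gene as GENCODE annotates it and were left out of its window. Over the 27025 genes with such a promoter the letters occurred in 3.99%, and in 26 of the 45 members of a list of interferon effector genes that had one (57.8%). Among genes higher in Irf7-high cells, as defined below, 15 had a match, 7.18% of those with a promoter, against 3.85% of the genes tested. The GAS-type letters TTCNNNGAA, which are their own reverse, occurred in 9.55% of all genes, 28.9% of the effector list and 10.5% of the genes higher in Irf7-high cells.

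Irf7 (ENSMUSG00000025498, chromosome 7, 141262706 to 141266481, minus strand, GRCm38 in GENCODE M21) chose the groups, so its levels are a description. Its mean in Irf7-high cells was 58.6 TPM in plate set 1, 74.97 TPM in plate set 3 and 73.4 TPM in plate set 6. The median Irf7-high cell had 39.6 TPM and the highest 741.64 TPM. The 3 cells nearest under the limit had 18.35, 19.36 and 19.82 TPM, and the 3 nearest over it 20.08, 20.11 and 20.27 TPM. The lowest value above 0 was 3.26 TPM. The limit of 20 TPM therefore cuts a continuous range, whereas 0 TPM is set apart from the rest.

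Irf7-high cells made up 32.4% of the wild type cells that met the tuft limits (97 cells, exact 95% interval 27.2 to 38.1%, counting error only). By plate set the share was 21.1%, 33.8% and 35.7%, a mean of 30.2 ± 7.97% (SD, n = 3 plate sets). High Irf7 was also found outside the tuft limits, in 23.8% of the other wild type cells with at least 1000 genes (49 cells), with 20.6, 25 and 24.2% in plate sets 1, 3 and 6. Among these, 41 of 110 wild type cells with Trpm5 at 0 also had at least 20 TPM (37.3%). Cells that met the limits in VillinCre;IPMKf/f mice were Irf7-high in 62.03% of cases, in plate sets that hold no wild type cell, so genotype and plate set cannot be told apart.

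The Irf7-high cells also had more genes detected. The median cell had 3031.5, 3237 and 3260 genes above 0 TPM among Irf7-high cells in plate sets 1, 3 and 6, against 2348, 2620 and 2083 among Irf7-negative cells. The difference of medians was 825.8 ± 305.9 genes (SD, n = 3 plate sets), and individual cells of the groups overlapped widely. The share of Irf7-high cells was 18.1% among cells with 1000 to under 2000 genes, 27.5% with 2000 to under 3000, 43.3% with 3000 to under 4000 and 49.02% with 4000 or more. TPM keeps no read depth, so a 0 for Irf7 may be a transcript missed in a shallow cell as well as one not made. For this reason the main wild type comparisons are also given with Irf7-negative cells weighted to the Irf7-high cells' mix of those 4 ranges within the plate set, called depth-weighted here.

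**Figure D1:**
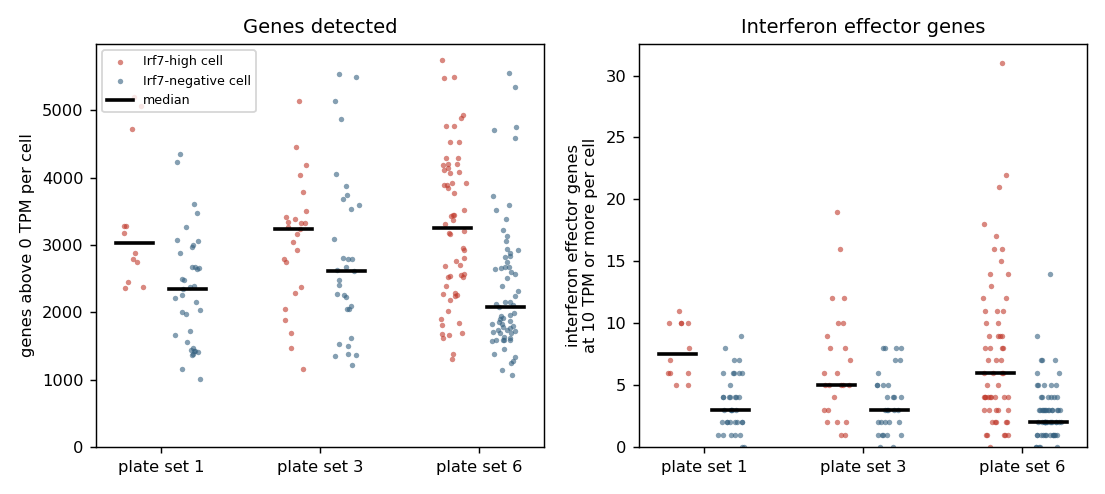
Each point is 1 wild type cell in plate set 1, 3 or 6, Irf7-high (red, left) or Irf7-negative (blue, right), with the median as a bar. The left panel gives genes above 0 TPM per cell, with medians of 3031.5, 3237 and 3260 in Irf7-high cells and 2348, 2620 and 2083 in Irf7-negative cells; the right panel gives interferon effector genes at 10 TPM or more per cell, with medians of 7.5, 5 and 6 in Irf7-high cells and 3, 3 and 2 in Irf7-negative cells.

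Most tuft markers checked that the limits had not used were found in a large share of both groups. Sh2d6, an adaptor protein, was detected in every cell of both groups. Avil, an actin-binding protein of the tuft, was detected in 100% of Irf7-high and 97.8% of Irf7-negative cells. Pou2f3, the transcription factor that specifies tuft cells, was detected in 86.6% of Irf7-high and 77.6% of Irf7-negative cells, and Siglecf, the sort marker, in 94.8% and 77.6%. Rgs13, a regulator of G protein signalling, was detected in 86.6% of Irf7-high and 66.4% of Irf7-negative cells, and Gng13, a G protein gamma subunit of taste signalling, in only 9.28% and 6.72%. Of these cells, 5 Irf7-high and 11 Irf7-negative ones came from wells labelled epithelial. Cd3e, Lyz2 and Cd74 were at 0 in every cell of both groups, although Cd74 was detected in 4.41% of the cells between the Irf7 limits. Of 26 leukocyte markers, 23 were at 0 in all Irf7-high cells and 20 in all Irf7-negative cells, and 1 reached 1 TPM in a group. The summed level of the 26 was 0.234 to 3.96 TPM over plate sets in Irf7-high cells and 0.4003 to 0.584 TPM in Irf7-negative cells.

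For each gene the mean TPM of a group was taken in each plate set, and the difference is log2(mean TPM + 1) of Irf7-high minus Irf7-negative cells, averaged over the 3 plate sets. The added 1 TPM understates the change of low genes. A gene is called higher or lower when it reached 10 TPM in a group, differed at least 2-fold on this scale, had the same sign in all 3 plate sets and was detected in at least 25% of the cells of the group where it was higher. Apart from Irf7, 2495 genes reached 10 TPM, of which 11.4% were higher and 11 genes were lower (0.441%) in Irf7-high cells. Of the 2495, 728 reached 10 TPM through the Irf7-high cells alone and fewer through the Irf7-negative cells alone, so the limit favours higher calls. With depth weighting the split was 86 higher of 2673 (3.22%) and 62 lower (2.32%). The 74 genes higher both ways are 25.96% of those called higher in all cells and 86.05% of those called higher with depth weighting. The median of all genes tested was itself 0.50 above 0, with 0.37, 0.28 and 0.77 in plate sets 1, 3 and 6, and 0.19 after depth weighting. Most of the higher calls thus came with a general shift toward Irf7-high cells, and single genes are best read against it.

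Of the 10 listed interferon effectors that reached 10 TPM, 4 were called higher, against 11.4% of all genes tested. Of these 4, 3, each reaching 10 TPM through the Irf7-high cells alone, belonged to the oligoadenylate synthetase family. These enzymes and their relatives respond to double-stranded RNA. Oasl2, a synthetase-like member, averaged 23.2, 15.4 and 13.9 TPM in Irf7-high cells of plate sets 1, 3 and 6, against 2.64, 0 and 1.01 TPM in Irf7-negative cells. Every plate set of Irf7-high cells was above every plate set of Irf7-negative cells. The difference was 3.22 ± 0.71 (log2, SD, n = 3 plate sets), the largest of all genes called higher, and 2.97 with depth weighting. Oasl2 was detected in 45.4% of Irf7-high and 7.46% of Irf7-negative cells.

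Oas1a averaged 13.1, 10.6 and 13.8 TPM in Irf7-high cells, against 1.92, 2.23 and 2.81 TPM in Irf7-negative cells. Its plate sets agreed closely, with differences of 2.27, 1.85 and 1.96 and a mean of 2.02 ± 0.22 (log2, SD, n = 3 plate sets), or 1.78 with depth weighting. Oas1g averaged 13.5, 7.15 and 17.1 TPM in Irf7-high cells, against 4.47, 4.22 and 4.37 TPM in Irf7-negative cells, a log2 difference of 1.27 ± 0.57. With depth weighting Oas1g stood at 0.97, under the 2-fold limit. Oas1a and Oas1g are close paralogs with near-identical promoters above, and reads may have been split between them by RSEM's model, so their separate levels are uncertain.

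Ifi27l2b, a small interferon-inducible protein, was the fourth effector called higher. It averaged 90.3, 47.1 and 65.3 TPM in Irf7-high cells, against 24.99, 31.7 and 14.3 TPM in Irf7-negative cells, a log2 difference of 1.49 ± 0.82. The groups did not overlap over plate sets, although plate set 3 differed by only 0.56. With depth weighting the difference was 1.35.

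Among the genes of interferon reception and signalling, the transcription factor gene Irf9 differed by 0.69 ± 0.19 and Stat2 by 0.37 ± 0.71, neither reaching 10 TPM. Irf9 was detected in 42.3% of Irf7-high and 11.9% of Irf7-negative cells. The receptor subunit Ifnar2 averaged 11.0, 11.4 and 11.3 TPM in Irf7-high cells, against 1.82, 4.49 and 1.76 TPM in Irf7-negative cells of plate sets 1, 3 and 6, but it was detected in 23.7% of Irf7-high cells, just under the share needed for a call. The other subunit, Ifnar1, differed by 0.31 ± 0.96. With depth weighting Irf9 stood at 0.76, Stat2 at 0.50, Ifnar2 at 1.496 and Ifnar1 at -0.07.

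**Figure D2:**
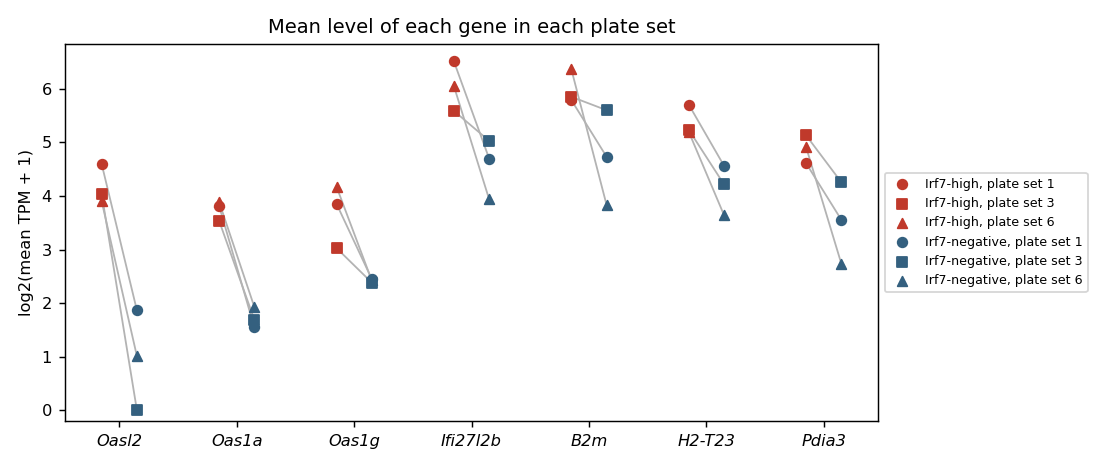
Each line joins the mean level of a gene, as log2(mean TPM + 1), in Irf7-high cells (red, left) to that in Irf7-negative cells (blue, right) of the same plate set; symbols stand for plate sets 1, 3 and 6. For each gene shown every red point lies above every blue one, and the 3 lines of Oas1a fall by similar amounts.

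Over the list of 60 interferon effectors, most measured members were higher in Irf7-high cells, with a wide spread and few calls. Of the 60, 39 reached 1 TPM in a group and 10 reached 10 TPM, 5 of these 10 through the Irf7-high cells alone. The median difference of the 39 was 1.00 ± 0.25 (log2, SD over plate sets), with medians of 0.66, 0.77 and 1.15 in plate sets 1, 3 and 6. For this list and those below, ± is the SD among the plate-set medians, which need not centre on the list median. All genes that reached 1 TPM, 9610 in number, had a median of 0.28. The difference was above 0 for 35 of the 39, against 67.7% of all genes that reached 1 TPM. It was above 0 in each plate set for 22, with 1 below 0 in each, against 27.5% of all genes that reached 1 TPM. This was not particular to effectors: 19 of 34 core tuft genes and 13 of 22 housekeeping genes were also above 0 in each plate set. With depth weighting the list stood at 0.90 and all genes at 0.05. Depth-weighted list medians within plate sets 1, 3 and 6 were lower, at 0.49, 0.68 and 0.87. Of the 39, 16 reached 1 TPM through the Irf7-high cells alone and had to differ in that direction, and 3 did so through the Irf7-negative cells alone.

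Several effectors with large differences lay just under a limit and were picked out after their values were seen. Xaf1, an interferon-induced partner of apoptosis inhibitors, averaged 8.503, 8.29 and 7.17 TPM in Irf7-high cells, against 0.359, 1.45 and 0 TPM in Irf7-negative cells. Bst2 (tetherin), which holds budding viruses at the cell surface, averaged 5.21, 11.8 and 12.8 TPM in Irf7-high cells, against 0, 3.53 and 0.368 TPM in Irf7-negative cells. Apol9b averaged 9.75, 9.78 and 3.71 TPM in Irf7-high cells, against 1.03, 0.599 and 0.243 TPM in Irf7-negative cells. In all 3 genes the plate sets of the groups did not overlap, with log2 differences of 2.59 ± 0.59 for Xaf1, 2.49 ± 0.93 for Bst2 and 2.36 ± 0.42 for Apol9b. With depth weighting these were 2.88, 2.55 and 2.31, and without the highest cells Xaf1 stood at 1.53. Their shares of cells were low, 19.6% of Irf7-high and 2.24% of Irf7-negative cells for Xaf1.

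Some effectors typical of an acute interferon response were at 0 or found in few cells. Mx1 and Ifit3, both strongly induced in virus-infected cells, were listed at 0 in all cells of both groups. Isg15, a ubiquitin-like modifier, was detected in 14.4% of Irf7-high and 0.746% of Irf7-negative cells, and its plate-set means were 0, 8.80 and 3.98 TPM in Irf7-high cells and 0, 14.0 and 0 TPM in Irf7-negative cells. In Irf7-negative cells all of it came from 1 cell with 448.83 TPM. Rsad2 (viperin) was detected in 14.4% and 2.24%. Effectors abundant in both groups differed less: Lgals3bp averaged 54.99, 46.8 and 49.6 TPM in Irf7-high cells, against 36.5, 26.1 and 22.9 TPM in Irf7-negative cells, and Ifitm2 differed by -0.08 ± 0.80. None of 11 interferon ligand genes reached 1 TPM in either group.

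Irf7-high cells tended to hold several effectors at once. The number of listed effectors at 10 TPM or more had medians of 7.5, 5 and 6 per Irf7-high cell in plate sets 1, 3 and 6, against 3, 3 and 2 per Irf7-negative cell. The difference of medians was 3.5 ± 1.32 genes (SD, n = 3 plate sets). At least 5 effectors were found in 64 of 97 Irf7-high cells (65.98%) and in 33 Irf7-negative cells (24.6%). At matched numbers of detected genes, in the 4 ranges upward, the medians were 3, 6, 6 and 9 in Irf7-high cells and 2, 3, 3 and 7 in Irf7-negative cells. The median was thus higher in Irf7-high cells of each range, by 1 gene in the shallowest and 3 in the middle ranges. The share of cells with at least 5 effectors did not follow in the deepest range: in the 4 ranges upward it was 23.1, 60, 75.9 and 84% in Irf7-high cells and 5.77, 23.5, 31.6 and 100% in Irf7-negative cells, where the deepest range held 25 Irf7-high and 12 Irf7-negative cells.

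The number also rose with the level of Irf7 itself. The median was 3 effectors in cells at 0 TPM, 4.5 in cells above 0 and under 20 TPM, 5.5 in cells from 20 to under 50 TPM, 8 from 50 to under 100 TPM and 10 at 100 TPM or more. The 4 ranges above 0 hold 68, 60, 19 and 18 cells, and the ranges of effector numbers overlapped throughout. Cells were pooled over plate sets here, without depth weighting. Genes detected rose as well, with medians of 2256.5 at 0 TPM, 2984 above 0 and under 20 TPM, and 3207 at 20 TPM or more. The part of depth in the rise of effectors was not tested. Only 1 of 97 Irf7-high cells had no effector at 10 TPM, against 9 Irf7-negative cells (6.72%), so most Irf7-negative cells were not devoid of interferon effectors.

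**Figure D3:**
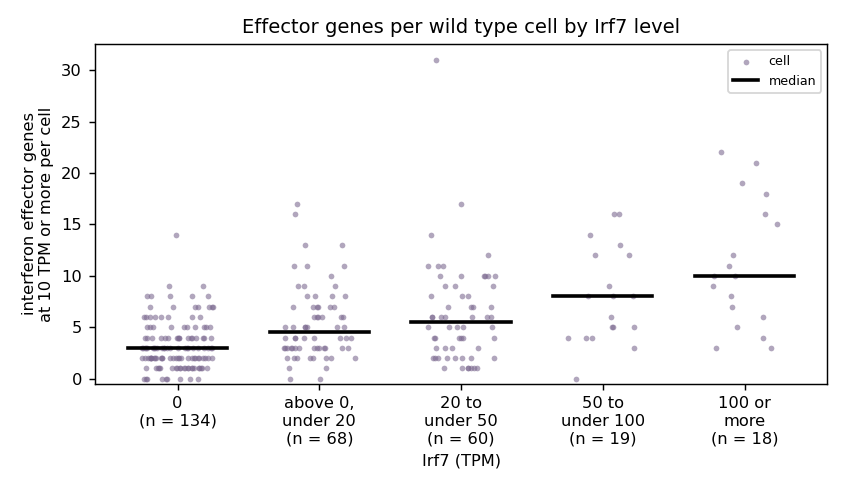
Each point is 1 wild type cell that met the tuft limits, placed by its Irf7 level (TPM, in 5 ranges from 0 upward) and by its number of interferon effector genes at 10 TPM or more; bars are medians. The medians run 3, 4.5, 5.5, 8 and 10, while the clouds of cells overlap. Plate sets are pooled, without depth weighting.

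MHC class I genes followed. The light chain gene B2m averaged 54.4, 56.8 and 81.6 TPM in Irf7-high cells, against 25.6, 47.6 and 13.3 TPM in Irf7-negative cells. The plate sets did not overlap, but the difference within plate sets varied widely at 1.06, 0.25 and 2.53, a mean of 1.28 ± 1.16. The nonclassical heavy chain H2-T23 averaged 51.3, 36.7 and 35.8 TPM in Irf7-high cells, against 22.7, 17.6 and 11.5 TPM in Irf7-negative cells, a log2 difference of 1.24 ± 0.28. Pdia3, a chaperone of heavy chain folding, differed by 1.37 ± 0.70. With depth weighting B2m stood at 0.99, H2-T23 at 0.91 and Pdia3 at 0.50, and none of these 3 genes was called higher.

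The classical heavy chains H2-K1 and H2-D1 were abundant in both groups and differed by 0.82 ± 0.76 and 0.93 ± 0.30, or by 0.57 and 0.51 with depth weighting. H2-D1 averaged 229.5, 187.9 and 142.4 TPM in Irf7-high cells, against 148.6, 96.6 and 60.4 TPM in Irf7-negative cells, so that the groups overlapped over plate sets. Heavy chain genes are similar in sequence, and their separate levels are uncertain. Of 26 genes of the class I and immunoproteasome list, 20 reached 1 TPM. Of these, 13 were above 0 in each plate set, against 27.5% of all genes that reached 1 TPM and 13 of 22 housekeeping genes. Of the 10 that reached 10 TPM, 3 were called higher, against 11.4% of all genes tested, and none with depth weighting. The list median was 0.83, above the medians of 0.56, 0.72 and 0.82 within plate sets 1, 3 and 6, which had an SD of 0.13. It was 0.50 with depth weighting, with 0.04, 0.59 and 0.19 in these plate sets. The immunoproteasome subunit Psmb9 differed by -0.12 ± 0.20 and the activator subunit Psme1 by 0.29 ± 0.37, neither past the limit of size.

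The sensors of foreign nucleic acid were less marked. Of 18 listed, 12 reached 1 TPM and none was called higher or lower. Of the 12, 5 were above 0 in each plate set, against 27.5% of all genes that reached 1 TPM. The median was 0.41 ± 0.25, or 0.27 with depth weighting. The widest difference was that of Dhx58, a relative of the RNA sensor RIG-I, at 2.44 ± 1.5. Ddx58, which encodes RIG-I, averaged 8.02, 8.67 and 10.4 TPM in Irf7-high cells, against 26.02, 3.23 and 3.14 TPM in Irf7-negative cells, so plate set 1 went the other way. The 20 genes of interferon reception and signalling, 15 of them measured, had a median of 0.41 ± 0.48 and of 0.06 with depth weighting.

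**Figure D4:**
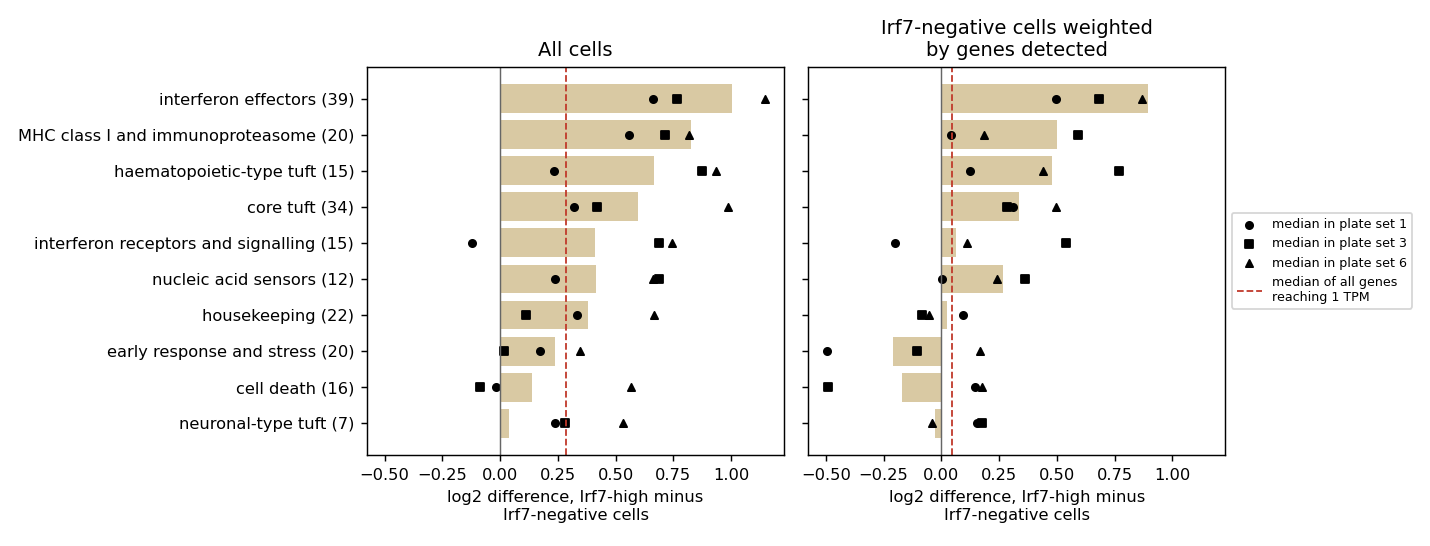
Bars give the median log2 difference, Irf7-high minus Irf7-negative cells, over the members of each gene list that reached 1 TPM (their number in brackets), for all cells on the left and with depth weighting on the right; symbols are medians within plate sets 1, 3 and 6. The dashed line is the median of all genes reaching 1 TPM, 0.28 on the left and 0.05 on the right, and the interferon effectors stand at 1.00 and 0.90.

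Core tuft genes were called higher about as often as other genes. Of 36 such genes, which leave out Trpm5 and Dclk1, 34 reached 1 TPM and 31 reached 10 TPM, and 4 of the 31 were called higher (11.4% of all genes tested were): Cd24a, Ptgs1, Rgs13 and Ffar3. Cd24a, a surface glycoprotein, averaged 886, 771 and 790 TPM in Irf7-high cells, against 416.7, 326.6 and 195.7 TPM in Irf7-negative cells, a log2 difference of 1.44 ± 0.49. Ptgs1, the cyclooxygenase of tuft prostaglandin synthesis, averaged 102.4, 64.7 and 50.4 TPM in Irf7-high cells, against 45.3, 27.2 and 25.1 TPM in Irf7-negative cells, a log2 difference of 1.12 ± 0.13. At the other end of the list, Gng13 differed by -0.68 ± 1.86 and Hpgds, a prostaglandin D synthase, by -0.44 ± 0.86. Over the 34 genes that reached 1 TPM the list median was 0.60 ± 0.36, against 0.28 for all genes that reached 1 TPM. With depth weighting these medians were 0.34 and 0.05, and none of the 4 genes then passed the limit of size.

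The genes that tuft cells share with blood cells had a median of 0.67 ± 0.39 over 15 measured, or 0.48 with depth weighting. Of the 14 that reached 10 TPM, 1 was called higher, against 11.4% of all genes tested. This was Ptprc, the phosphatase CD45, and with depth weighting its difference of 1.10 became 0.89 and the call was lost. It averaged 37, 10.8 and 13.9 TPM in Irf7-high cells, against 10.7, 7.74 and 5.67 TPM in Irf7-negative cells. The neuronal-type tuft genes had a median of 0.04 over 7 measured, -0.03 with depth weighting, with medians of 0.24, 0.28 and 0.53 within plate sets 1, 3 and 6 and -0.08 to 0.43 when 1 plate set was left out. Early response and stress genes stood at 0.24 and at -0.21 with depth weighting, housekeeping genes at 0.38 and 0.02, cell death genes at 0.14 and -0.17, and NF-kB and inflammatory targets at 0.52 and 0.28, with no call in any of these 4 lists. Jun, an early response factor, differed by -0.05 ± 0.62, and Nfkbia, the inhibitor of NF-kB, by 0.97 ± 0.50.

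Colonocyte markers summed higher in Irf7-high cells, but unevenly over plate sets and cells. The summed level of 18 such genes was 954, 270.1 and 289.8 TPM in Irf7-high cells of plate sets 1, 3 and 6, against 179.7, 180.3 and 96.9 TPM in Irf7-negative cells. It was higher in Irf7-high cells of every plate set. The 9 that reached 1 TPM had medians of 2.75, 0 and 1.32 within plate sets 1, 3 and 6. Of the 9, 2 were above 0 in each plate set, against 27.5% of all genes that reached 1 TPM. The median of 0.97 over the 9 became 0 without the highest cell of each plate set and group. Car1, carbonic anhydrase 1 of colonocytes, averaged 676, 9.79 and 41.4 TPM in Irf7-high cells, against 15.02, 26.96 and 10.2 TPM in Irf7-negative cells. Without the highest cell of each plate set and group its difference was -0.998 instead of 1.98. Of 9 markers measured, 3 reached 10 TPM. Of these 3, Lypd8 alone was called higher, against 11.4% of all genes tested. Lypd8 differed by 1.59 ± 1.15, but stood at 0.96 with depth weighting, under the limit. It was detected in 53.6% of Irf7-high and 29.1% of Irf7-negative cells. The part of such RNA in the other differences was not tested. For the effector list, the median over the same 39 genes was 0.84 without the highest cell of each plate set and group.

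Beyond interferon genes, the largest calls were of varied function. After Oasl2 the 15 genes with the largest differences included Dap, a death-associated protein (3.03 ± 0.85), Timm17a, a subunit of the mitochondrial protein import complex (3.01 ± 1.74), Ipo13, a nuclear transport receptor (2.66 ± 0.45), and Fabp1, the fatty acid carrier of enterocytes (2.51 ± 0.63). The respiratory chain subunits Uqcrb and Cox7c differed by 2.42 ± 1.05 and 1.98 ± 0.99, and the actin-binding protein Cttn by 1.98 ± 0.54. Fbxo18, Tarbp2, Cdc25b, Shisa5, Erlin1 and Slc2a10 completed the 15 with Oas1a, at 1.94 to 2.37. With depth weighting Fbxo18 was no longer called, since plate set 6 then stood at -0.76. Some rest on few cells: without the highest cell of each plate set and group Ipo13 stood at 1.43, Dap at 1.10, Cdc25b at 0.77, Erlin1 at 0.63 and Slc2a10 at 0.60, whereas Oasl2 stood at 3.10 and Oas1a at 1.96.

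Fabp1 averaged 275.9, 68.4 and 62.1 TPM in Irf7-high cells, against 45.6, 7.02 and 16.5 TPM in Irf7-negative cells. The difference remained at 2.53 with depth weighting and 2.26 without the highest cells, and the gene was detected in 39.2% of Irf7-high and 16.4% of Irf7-negative cells. Timm17a averaged 31.1, 22.2 and 13.2 TPM in Irf7-high cells, against 0.192, 1.90 and 4.84 TPM in Irf7-negative cells, and the groups did not overlap.

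The 11 genes called lower had smaller and less even differences. Dtnb, beta-dystrobrevin of the dystrophin complex, averaged 4.77, 17.8 and 5.96 TPM in Irf7-high cells, against 27.3, 91.7 and 13.8 TPM in Irf7-negative cells, a log2 difference of -1.90 ± 0.70. A single Irf7-negative cell with 2413.65 TPM held 49.9% of that group's summed Dtnb. Without the highest cell of each plate set and group Dtnb stood at -1.44. It was detected in 31.96% of Irf7-high and 36.6% of Irf7-negative cells. In VillinCre;IPMKf/f plate sets 2, 4 and 5 it differed by -2.09, -0.48 and 1.49. Pold1, the catalytic subunit of DNA polymerase delta, differed by -1.85 ± 1.48. The ribosomal protein gene Rps27 differed by -1.06 ± 1.16, and it has processed copies among which reads may be split. Arhgap4, Myzap, Elk4, Leng8 and Klc1 lay at -1.38 to -1.02, and 2 further entries carry only numbered Gm symbols. Myzap stood at 0.10 without the highest cell of each plate set and group, which turns its direction. Of the 11 genes, 5 were also called lower with depth weighting.

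The VillinCre;IPMKf/f cells, which had no part in choosing the wild type members, can be split by the same limits into Irf7-high cells, 35, 42, 33 and 6 in plate sets 2, 4, 5 and 7, and 35 Irf7-negative cells, 7, 9, 17 and 2 in the same plate sets. Plate set 7 thus holds 6 Irf7-high and 2 Irf7-negative cells and was left out here, so plate sets 2, 4 and 5 are compared, without depth weighting. In these, 340 of 2626 genes were higher (12.9%) and 39 lower (1.49%) in Irf7-high cells. Of the genes higher in wild type, 56 were also higher there (19.6% of the wild type genes and 16.5% of the 340). The genes higher in wild type had a median difference of 0.78 there, against 0.56 for all genes tested in wild type.

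Some interferon genes recurred and others did not. Over the same 39 effector genes the median was 0.96 in these cells, against 0.44 for all genes reaching 1 TPM in wild type. Of the 39, 34 were above 0, as were 31 of 34 core tuft genes and 19 of 22 housekeeping genes. The 20 class I genes had a median of 1.20. Oas1a differed by 1.18, 2.88 and 0.55 in plate sets 2, 4 and 5, and Oasl2 by 1.41, 0.38 and 1.51. The other 2 effectors called in wild type were above 0 in each plate set but under the 2-fold limit, Oas1g at 0.07, 0.90 and 0.34 and Ifi27l2b at 1.03, 0.93 and 0.88. H2-T23 differed by 2.20, 2.57 and 1.88 and B2m by 1.35, 2.66 and 2.05. Pdia3 did not recur, at -2.91, 1.34 and -1.60, nor did Timm17a, at -0.83, 3.74 and -1.94. Ipo13 lay at 0.44, -1.76 and -0.26 there. The difference between the genotypes in these values was not tested.

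**Figure D5:**
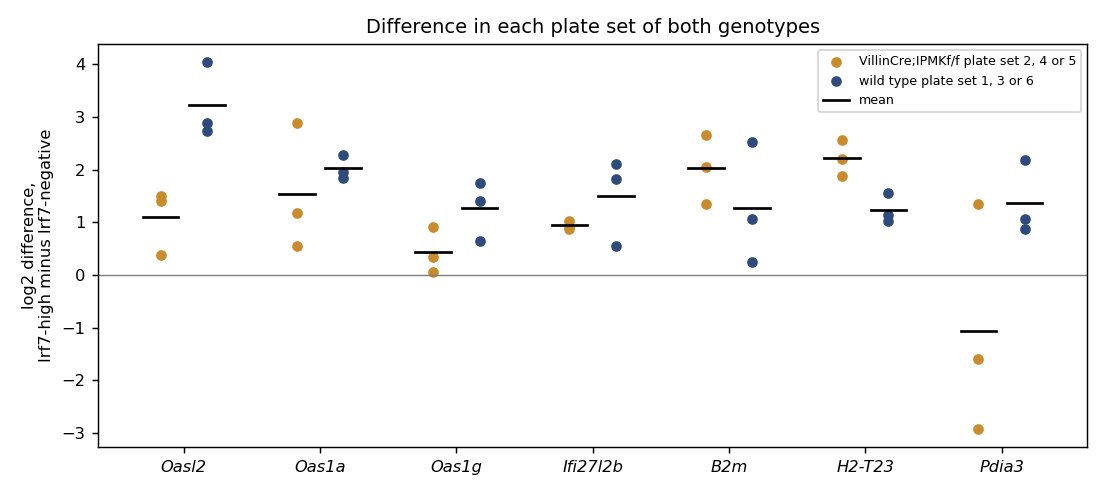
Points give the log2 difference, Irf7-high minus Irf7-negative cells, within each plate set of VillinCre;IPMKf/f cells (orange, left; plate sets 2, 4 and 5) and of wild type cells (blue, right; plate sets 1, 3 and 6), and bars their means. All points lie above 0 except 2 of Pdia3 in VillinCre;IPMKf/f cells.

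The Irf7-negative cells of VillinCre;IPMKf/f mice still held effectors. Their median was 5, 7 and 6 effectors at 10 TPM or more in plate sets 2, 4 and 5, against 3, 3 and 2 in Irf7-negative wild type cells of plate sets 1, 3 and 6, with no overlap over plate sets. Irf7-high cells had medians of 10, 11 and 8 in these VillinCre;IPMKf/f plate sets, against 7.5, 5 and 6 in wild type. Genotype and plate set cannot be told apart in these values.

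Ipmk itself, intact in the wild type mice, was low in both wild type groups. It averaged 3.34, 3.46 and 2.89 TPM in Irf7-high cells, against 0.9595, 0.95 and 0.596 TPM in Irf7-negative cells of plate sets 1, 3 and 6. The plate sets did not overlap, and the gene was detected in 27.8% of Irf7-high and 11.9% of Irf7-negative cells. It did not reach 10 TPM and was named for its place in the study, not by the rule of size. Its log2 difference was 1.21 in all cells and 0.96 with depth weighting.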

How the data were processed

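The deposited values are TPM for 46517 mouse genes and 92 spike-in entries per well. Each column of the cells used summed to 1000000. Per the submitters' processing notes the authors used Bowtie2 2.4.2, RSEM 1.3.3 and build mm10. Their settings, the annotation release and the reads behind a cell are not stated in what was used here. The 18S entry Rn18s-rs5 held 76.0, 79.4 and 77.8% of the total in Irf7-high cells of plate sets 1, 3 and 6, and 77.2, 78.9 and 82.1% in Irf7-negative cells, which shares the fixed total and lowers all other genes. Depth is unknown, and genes above 0 stand in for it. The 38 wells of 1 VillinCre;IPMKf/f plate were not used, because a column there held only whole numbers and its unit could not be established as TPM. No wild type cell is among them. No identical columns were found among the cells that met the limits, and no doublet caller was run.

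Groups came from the labels and the limits given above. Means, differences and counts were computed in Python 3.11.15 with numpy 2.4.6 and pandas 2.3.3, and exact binomial intervals with scipy 1.17.1. The calling rule was run on simulated data with known changes, in which a gene was equally likely to be detected in both groups. That run could therefore not address the difference in genes detected. Named are the 15 highest and up to 10 lowest genes by the rule of size, leaving out Gm, Rik, mitochondrial and clone-named symbols, members of the interferon and class I lists that met it, and the extremes of other lists; others are said to be chosen after their values were seen. List members need 1 TPM in a group. In the depth-weighted comparison the 25% limit applies to weighted shares. IDs were matched to GENCODE M21, 46005 of 46517. Limits, members and gene lists were chosen with earlier results of these data known. Results for a few single genes are not reported here. Alternatives are listed at the end.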

Additional observations from a re-analysis of the deposited data

Results flagged for a closer look

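In 45 groups of 4 to 8 values, 5 held 1 value far from the others, and chance alone flags about 1 in 20 such groups. Tarbp2 differed by -1.22 in plate set 2 of VillinCre;IPMKf/f cells, Irf7-high minus Irf7-negative (log2), and this value stood apart from the other 3 plate sets of that genotype. The other 4 came from plate set 7, where 6 Irf7-high cells were set against 2 Irf7-negative cells. Erlin1 differed there by 7.64, Oas1g by 5.40 and Ifi27l2b by 2.50, and the NF-kB and inflammatory target list had a median of 2.30. With so few cells these values were not used in the comparison of genotypes.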

How the results depend on the processing

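No paired analysis was possible because no result comes from a test to which a block could be added; the differences were instead taken within plate sets, which both groups share. The shares of tested genes higher and lower in Irf7-high cells, 11.4% and 0.441%, depended most on the processing. They were 1.92% and 0.12% with a pseudocount of 10 TPM, 19.3% and 0.16% with means of log2(TPM + 1), 19.5% and 0.902% with Irf7-high set at 50 TPM, 6.85% and 0.819% in cells with at least 2000 genes, 29.5% and 1.04% at 1.5-fold, and 3.22% and 2.32% with Irf7-negative cells weighted by genes detected, or 3.22% and 1.24% with the share limit on unweighted shares (a form chosen after seeing the data). The lower share was 0.208% for genes reaching 1 TPM, 0.709% after rescaling TPM without Rn18s-rs5 and mitochondrial genes (4.68% higher, over 7336 genes tested) and 1.6% with no limit on the share of cells. Leaving out 1 plate set gave 11.6 to 21.5% higher (21.5% without plate set 3) and 0.558 to 2.55% lower (0.827% without plate set 3, 2.55% without plate set 6), with fewer plate sets then needed to share a sign. After rescaling the median of all genes tested was 0.23 over 7336 genes, against 0.50 over the 2495 genes tested without it. These are different sets of genes, and the 9610 genes reaching 1 TPM without rescaling had a median of 0.28.

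The effector list median, 1.00, was 0.24 with a pseudocount of 10 TPM, 0.53 with means of logs and 1.39 after rescaling. All genes reaching 1 TPM had 0.09 with that pseudocount and 0.21 with means of logs. No such median is given after rescaling, which raises all values, so the 1 TPM limit and the added 1 TPM act differently there. The value of 1.39 is therefore not directly comparable with 1.00. Without 1 plate set the effector list median was 0.94 to 1.10. The class I list, 0.83, was 0.25 with a pseudocount of 10 TPM, 0.51 with means of logs, 0.57 in cells with at least 2000 genes, 0.50 with depth weighting, and 0.58 to 0.86 without 1 plate set. Over members reaching 1 TPM in VillinCre;IPMKf/f cells of all 4 plate sets the effector median was 1.27, 0.41 with a pseudocount of 10 TPM, 1.96 after rescaling, and 0.99 to 1.39 without 1 plate set; cells with at least 2000 genes gave no value, as a plate set then lacked a group. The difference in genes detected, 825.8, was 509.8 in cells with at least 2000 genes, and the excess of effectors per cell, 3.5, was 5.33 at 50 TPM of Irf7. Most alternative values for the 28 named genes stayed within 1 SD over plate sets of the main value. Among all these values, 27 moved by more than 1 SD and 2 turned direction: Myzap, at 0.11 with means of logs and 0.10 without the highest cells. The cause of these changes was not tested.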
